A study of Homo sapiens with 16 samples.

Results

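The data compared loss of O-GlcNAc transferase (OGT) activity with loss of its mRNA while cyclin-dependent kinases were inhibited. The comparison took the 2 libraries labelled OSMI2 with AT7519 against the 4 libraries labelled siOGT1 or siOGT2 with AT7519, by their labels, and these 6 were of 16 libraries in all. The cells were LNCaP, a human prostate cancer line that expresses the androgen receptor. siOGT1 and siOGT2 are separate small interfering RNAs (siRNAs) against OGT, and the knockdown lasted 48 hours. OSMI2 inhibits OGT as a small molecule. It is listed in the siRNA field of the labels. Its dose and time, and any scrambled siRNA (Scr) given along with it, are not stated there. AT7519, an inhibitor of several cyclin-dependent kinases including CDK9, was given at 0.5 µM for 4 hours before harvest in all 6 libraries, so no untreated cell entered the main comparison. The other 10 libraries were Scr with AT7519 and the Scr, siOGT1, siOGT2 and OSMI2 arms with DMSO, each in 2 replicates. The labels do not state whether replicates were separate cultures. All p-values therefore reflect only the spread among these libraries, which may be technical. For a single value, an exact permutation test of 2 libraries against 4 cannot go below a one-sided p of 0.0667.

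OGT attaches a single sugar, N-acetylglucosamine, to serines and threonines of nuclear and cytosolic proteins, and OGA removes it. RNA polymerase II, many transcription factors and splicing proteins carry this mark, and HCF-1 is cleaved by OGT. An inhibitor blocks the enzyme and leaves the protein in place, whereas an siRNA removes transcript and protein, and with them any role that does not need catalysis. CDK9, the kinase of P-TEFb, releases paused RNA polymerase II into elongation, and its inhibition lowers short-lived transcripts first. The amounts of OGT and OGA mRNA are known to respond to the level of the mark through regulated splicing of retained introns.

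The 6 libraries held 40216911 to 89045835 counts, with the lowest total in OSMI2 replicate 2. On the first 2 principal components of the 16 libraries, the agent separated samples on the first (66.4% of variance). The second (15.7%) placed the OSMI2 libraries with AT7519 at 20.5 and 22.2, the Scr libraries at 3.87 and 8.21, siOGT2 at -11.8 and -8.04 and siOGT1 at -21.5 and -20.0. The OSMI2 libraries therefore stood on the far side of Scr from both siRNAs. The difference between replicates 1 and 2, taken gene by gene, correlated between siOGT1 and siOGT2 and with Scr at 0.684 to 0.734, and between OSMI2 and siOGT1 at 0.157 and OSMI2 and siOGT2 at 0.178. The 4 siRNA libraries thus shared part of their replicate differences with each other and little of it with OSMI2, and a separate preparation of the OSMI2 cells and the treatment itself cannot be told apart. Luminal markers were present, with 12 markers summing to 5432 to 6345 CPM (the count scaled to library total and TMM factor) in the 6 libraries. The stromal markers summed to 67.6 and 79.3 CPM with OSMI2 and to 41.7 to 58.4 CPM with the siRNAs over 7 members tested of 13. COL1A2 had a count of 0 in all 6 libraries. COL1A1 (663 to 2290 counts) and VWF (572 to 1010 counts) were called higher with OSMI2 (log2 fold changes 1.15 and 0.66). Over 5 members tested of 9, basal markers summed to 428 and 495 CPM with OSMI2 and to 278 to 552 CPM with the siRNAs. Of these 5 members, 3 were called higher, ITGB4 (0.78), KRT14 (0.98) and ITGA6 (0.18), where 14.4% of all tested genes were higher. KRT14 had only 11 to 59 counts and lost its call in 7 of 15 alternatives, and ITGA6 in 12 of 16. The basal markers KRT5, KRT15, TP63 and KRT17 had at most 6 counts in any of the 6 libraries. PTPRC, the pan-leukocyte marker, had at most 4 counts. The part of the stromal markers in the results was not tested, and in bulk RNA fewer cells of a type and less RNA per cell cannot be told apart.

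OGT itself (ENSG00000147162) stood at 422 and 408 CPM with OSMI2, at 11.01 and 10.98 CPM with siOGT1 and at 29.3 and 33.8 CPM with siOGT2. Scr with AT7519 had 256 and 314 CPM. Both OSMI2 libraries therefore exceeded every siRNA and Scr library, and the siOGT1 libraries were the lowest. OGT mRNA was 22.3-fold higher with OSMI2 than with the siRNAs (log2 fold change 4.48 ± 0.11 SE, adjusted p = 5.38e-14), and 0.54 ± 0.13 above Scr on the log2 scale (adjusted p = 0.00875). OGA (ENSG00000198408), the enzyme that removes the sugar, had 301 and 308 CPM with OSMI2, 48.6 and 56.8 CPM with siOGT1 and 64.0 and 69.1 CPM with siOGT2. No siRNA library came near the Scr values of 281 and 255 CPM, which the OSMI2 libraries slightly exceeded. OGA differed 5.14-fold (2.36 ± 0.18, adjusted p = 3.275e-06). OSMI2 against Scr did not pass the test for OGA (0.19, adjusted p = 0.649). GFPT1, the rate-limiting enzyme of the hexosamine pathway that supplies the sugar donor, had 235 and 260 CPM with OSMI2, 115.5 and 112 CPM with siOGT1 and 252 and 248 CPM with siOGT2. Its call (0.55, adjusted p = 6.203e-06) rested on siOGT1, since the siOGT2 libraries overlapped OSMI2. Of 22 genes of O-GlcNAc cycling and the hexosamine pathway, 4 were higher with OSMI2 and 4 lower (18.2% each), near the shares of all tested genes (14.4% higher and 16.7% lower).

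Across the transcriptome, 23830 genes were tested, and 7408 (31.1%) differed at an adjusted p under 0.05. With OSMI2, 3434 (14.4%) were higher and 3974 (16.7%) were lower. Against siOGT1 alone 28.9% of genes were called (13.1% higher and 15.8% lower) and against siOGT2 alone 24.2% (10.1% higher and 14.2% lower). In the mean and against each siRNA alone with the same sign, 4016 (16.9%) passed, of which 1626 (6.82%) were higher and 2390 (10%) lower. A called difference of at least 2-fold was seen for 1130 genes higher and 475 lower, so large differences were mostly higher in OSMI2 and smaller ones mostly lower. The median log2 fold change of all tested genes was 0.0319. The balance of directions depended on scaling, with 46.4% of calls higher under TMM, and 60.7% (4576 higher and 2964 lower) under upper-quartile scaling. Without OSMI2 replicate 2, the shallowest library, 4936 genes were called.

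**Figure D1:**
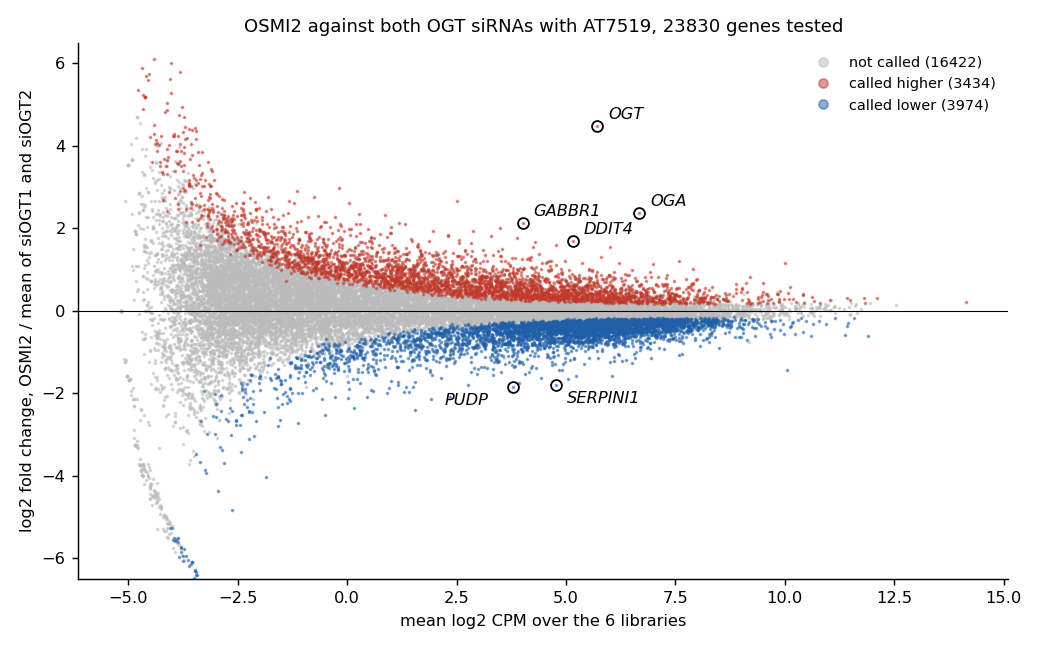
Log2 fold change of OSMI2 against the mean of siOGT1 and siOGT2 with AT7519 (y axis) by mean log2 CPM over the 6 libraries (x axis), 1 point per tested gene, red for 3434 called higher and blue for 3974 called lower. OGT at 4.48 and OGA at 2.36 lie above other genes of similar abundance, and 2 genes lie beyond 6.5 in size and are not drawn.

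Below OGT and OGA, the genes that stood highest against both siRNAs included a receptor, a stress regulator and several non-coding transcripts. GABBR1, a subunit of the metabotropic GABA receptor, had 39.96 and 46.3 CPM with OSMI2, 7.80 and 9.25 CPM with siOGT1, 9.97 and 13.1 CPM with siOGT2 and 20.8 and 27.9 CPM with Scr. Every siRNA library lay below Scr and every OSMI2 library above it. GABBR1 differed 4.34-fold (2.12 ± 0.22, adjusted p = 1.26e-05). DDIT4, an inhibitor of mTORC1 that stress induces, had 95.9 and 64.3 CPM with OSMI2, 26.1 and 13.1 CPM with siOGT1, 39.6 and 24.9 CPM with siOGT2 and 74.3 and 58.4 CPM with Scr. Here OSMI2 overlapped Scr, and the siRNA libraries were the ones that lay apart (3.21-fold, 1.68 ± 0.29, adjusted p = 0.00202). SRCIN1, which restrains the kinase SRC, had 21.2 and 21.5 CPM against 6.85 to 8.68 CPM with the siRNAs (2.73-fold, 1.45 ± 0.11, adjusted p = 3.63e-08). The long non-coding LINC01133 stood at 39.5 and 37.6 CPM against 11.8 to 14.7 CPM, and LINC02593 at 32.1 and 32.0 CPM against 11.8 to 14.3 CPM. The OSMI2 and siRNA values did not overlap in either gene.

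For 5 further genes among the highest, another gene overlaps the locus, and no source used here states the strand setting of the counting. LTB4R (1.75) shares sequence with LTB4R2 on the same strand, and MAMDC4 (1.67) with PHPT1. BEST1 (1.99) lies opposite FTH1, AHSA2P (1.58) opposite USP34 and PABPC1L (1.54) opposite TOMM34. Their log2 fold changes, given in parentheses, may hold reads of both partners. The same limit holds for LINC01133, which lies opposite an unnamed gene, and for some genes named below. Among these, EFNB2 and LUC7L3 share a strand with an unnamed gene. LEO1 lies opposite MAPK6 and TMOD3, and LUC7L2 overlaps FMC1.

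The genes that stood lowest against both siRNAs were in part genes that the knockdown had raised and OSMI2 had not. SERPINI1, a neuronal protease inhibitor, had 12.7 and 11.1 CPM with OSMI2, 49.8 and 37.7 CPM with siOGT1, 45.7 and 32.8 CPM with siOGT2 and 15.2 and 14.8 CPM with Scr. OSMI2 lay near Scr and all 4 siRNA libraries far above (3.47-fold lower, -1.80 ± 0.14, adjusted p = 2.82e-08). FBXO15, an F-box protein, showed the same order, with 6.53 and 7.19 CPM against 16.9 to 28.9 CPM with the siRNAs and a mean of 6.403 CPM with Scr. PUDP, a pseudouridine phosphatase, had 5.51 and 6.37 CPM, the siRNAs 15.7 to 28.3 CPM and Scr 7.83 and 6.40 CPM. It was 3.59-fold lower with OSMI2 (-1.84 ± 0.12, adjusted p = 6.19e-09). The kinase gene MAP4K1 (-1.57) and TMOD2 (-1.47), which caps actin filaments and lies opposite LYSMD2, also had siRNA libraries above Scr, and OSMI2 against Scr was 0.21 and -0.13 for them on the log2 scale, without passing the test.

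In other genes OSMI2 lay below Scr. MARS2, the mitochondrial methionyl-tRNA synthetase, had 17.3 and 13.3 CPM with OSMI2, 43.8 and 46.1 CPM with siOGT1, 51.2 and 53.3 CPM with siOGT2 and 38.6 and 34.2 CPM with Scr. The OSMI2 libraries were the lowest of all 8 with AT7519 (-1.66 ± 0.12 against the siRNAs, adjusted p = 1.07e-08; -1.24 against Scr, adjusted p = 6.05e-06). EFNB2, the ligand ephrin-B2, had 16.7 and 19.8 CPM against 45.2 to 64.4 CPM with the siRNAs and 49.6 and 32.6 CPM with Scr. The zinc finger gene ZNF281 had 13.7 and 6.90 CPM with OSMI2, 22.7 to 41.3 CPM with the siRNAs and 34.7 and 25.5 CPM with Scr. YOD1, a deubiquitinase, stood at 36.5 and 27.7 CPM against 89.3 to 106 CPM with the siRNAs and 82.6 and 68.3 CPM with Scr. PFKFB2 overlaps it on the opposite strand. POLR3G, a subunit of RNA polymerase III opposite MBLAC2, lay between these patterns, with OSMI2 below Scr (-0.72, adjusted p = 0.00143) and the siRNAs above it (0.73, adjusted p = 0.0002797). The siRNAs also passed above Scr in MARS2 (0.41, adjusted p = 0.0104) and YOD1 (0.36, adjusted p = 0.0145). NKIRAS1 (-1.34, opposite NR1D2 and RPL15) and APOLD1 (-1.39, on the strand of DDX47) completed the 12 lowest. In NKIRAS1, OSMI2 lay below Scr (-0.57, adjusted p = 0.00826) and the siRNAs above it (0.76, adjusted p = 0.00015). APOLD1 did not share this pattern. Its OSMI2 libraries did not pass against Scr (0.42, adjusted p = 0.136), and its siRNA libraries lay above Scr (1.81, adjusted p = 5.58e-07).

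**Figure D2:**
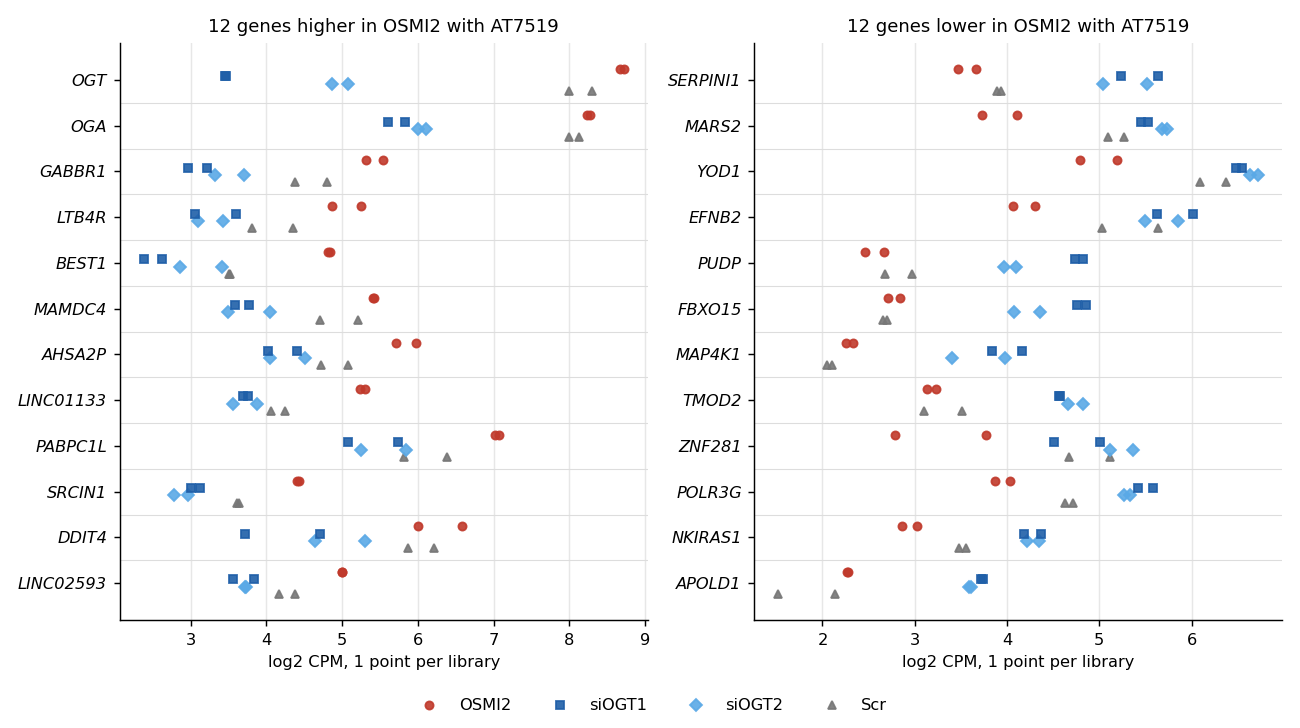
Log2 CPM (x axis) of the 12 genes, OGT and OGA included, that stood highest and the 12 that stood lowest with OSMI2 against both siRNAs (y axis), 1 point per AT7519 library, in red for OSMI2, dark and light blue for siOGT1 and siOGT2 and grey for Scr. The red points do not overlap the blue ones in any gene, because the choice of genes required it, and grey points lie near red in SERPINI1, PUDP and FBXO15 and near blue in ZNF281 and EFNB2.

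Set against the same Scr libraries, which both sides share, the called genes split in several ways. OSMI2 against Scr called 14.2% of all genes (5.18% higher and 9.01% lower), and the siRNAs against Scr 16.4% (8.58% higher and 7.85% lower). Of the 3434 higher genes, 731 differed from Scr in OSMI2 and not in the siRNAs, 911 in the siRNAs and not in OSMI2, 111 in both with opposite signs and 23 in both with the same sign. The remaining 1658 passed in neither. Of the 3974 lower genes, 1322 passed in OSMI2, 1218 in the siRNAs, 153 in both with opposite signs and 119 in both with the same sign, while 1162 passed in neither. A gene that passed on one side and not on the other is not shown by this count to differ between them; the main comparison is the test of that difference.

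Most members of the gene lists that follow are well-expressed coding genes, and lower calls were more frequent among such genes than among all. Of 9388 protein-coding genes with several exons whose mean log2 CPM reached 3, 33.1% were lower and 15.8% higher (median -0.101), and the lists are read against these shares as well.

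Genes of cholesterol and fatty acid synthesis were lower with OSMI2 as a group. These enzymes turn acetyl-CoA into sterols and lipids and are transcribed under SREBP factors, which the cell activates when sterols run low. Of 37 members tested, 29 were lower and 1 was higher, with a median of -0.455, where 16.7% of all genes were lower and their median was 0.0319. Against each siRNA alone, 20 were lower. IDI1, which isomerises isopentenyl diphosphate, had 66.4 and 74.5 CPM with OSMI2, 134 and 130 CPM with siOGT1, 137 and 115 CPM with siOGT2 and 105 and 87.6 CPM with Scr. OSMI2 lay below Scr and the siRNAs above it (-0.87 ± 0.09, adjusted p = 6.58e-07). LSS, which closes the sterol rings, had 89.6 and 108 CPM with OSMI2 and 183 to 195 CPM with the siRNAs, with no overlap (-0.93 ± 0.10, adjusted p = 1.58e-06). ACAT2, which condenses acetyl-CoA, had 62.7 and 60.2 CPM against 115 to 135 CPM (-0.99 ± 0.07, adjusted p = 1.75e-08), and TCP1 overlaps it on the opposite strand. MSMO1, a sterol methyl oxidase, had 118 and 144 CPM against 191 to 239 CPM (-0.71 ± 0.09, adjusted p = 8.58e-06). ELOVL5, a fatty acid elongase, was the single member that was higher (0.42, adjusted p = 0.0002145; chosen after its value was seen), and its siRNA libraries ranged from 844 to 1164 CPM against 1215 and 1403 CPM with OSMI2.

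The same list did not move this way under DMSO. There the median of OSMI2 against both siRNAs was 0.0955, 9 members were higher and 4 lower, where 6.9% and 9.7% of all genes were. The difference between the contrast with AT7519 and the contrast under DMSO (the interaction) had a median of -0.48, and 18 of 37 members passed its test, all 18 of them negative, where 1.66% of all genes passed in that direction. MSMO1 had 197 and 243 CPM with OSMI2 under DMSO, above its siRNA libraries at 165 to 188 CPM, and lay below all of them with AT7519 (interaction -1.04 ± 0.13, adjusted p = 0.0003131). IDI1 had 134 and 152 CPM with OSMI2 under DMSO against 128 to 133 CPM with the siRNAs (interaction -1.002 ± 0.12, adjusted p = 0.0003131). LSS, with 139 and 184 CPM against 153 to 199 CPM, overlapped its siRNA libraries under DMSO and not with AT7519 (interaction -0.81 ± 0.14, adjusted p = 0.003039). MVK, mevalonate kinase, chosen after its values were seen, had 48.6 and 47.6 CPM with OSMI2 under DMSO against 37.6 to 44.3 CPM with the siRNAs, and 22.2 and 24.5 CPM against 36.5 to 43.3 CPM with AT7519 (interaction -1.01 ± 0.14, adjusted p = 0.0009345). ACAT2 was the exception among these genes, being lower with OSMI2 under DMSO as well, at 59.8 and 56.6 CPM against 87.4 to 100.5 CPM, and its interaction did not pass (-0.32, adjusted p = 0.108). The list's interaction median lay between -0.682 and -0.419 in every alternative run.

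**Figure D3:**
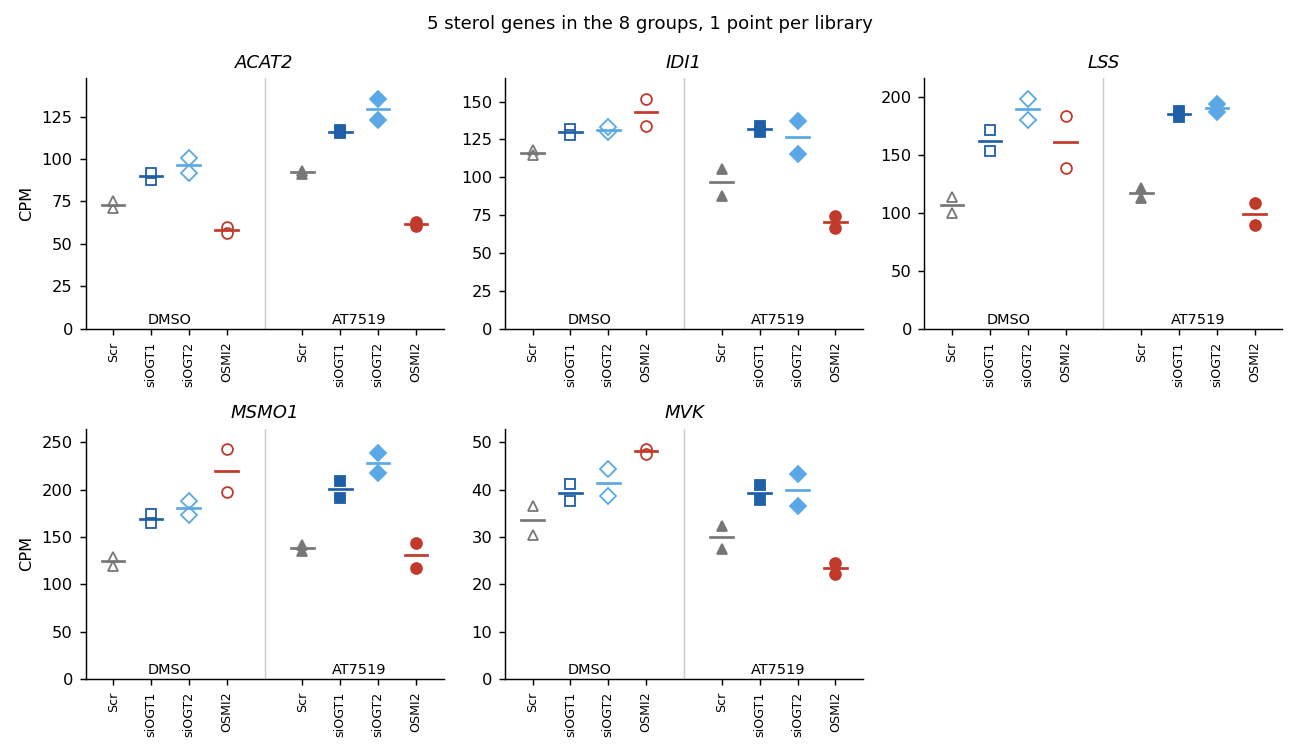
CPM (y axis, from 0) of 5 sterol genes in the 8 groups (x axis), 1 point per library with a line at each mean, open symbols for DMSO and filled for AT7519. OSMI2 lies above all siRNA libraries under DMSO in IDI1, MSMO1 and MVK, overlapping them in LSS and below them in ACAT2, and below all of them with AT7519 in all 5.

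Targets of ATF4 were mostly higher with OSMI2 than with the siRNAs. ATF4 is the transcription factor of the integrated stress response, made when eIF2 is phosphorylated, and it turns on amino acid synthesis and uptake, tRNA synthetases and stress regulators. Of 43 members, 27 were higher and 1 was lower, with a median of 0.319, where 14.4% of all genes were higher. Without OSMI2 replicate 1 a total of 17 were called. ATF4 itself had 420 and 356 CPM with OSMI2, 284 and 255 CPM with siOGT1, 305 and 260 CPM with siOGT2 and 346 and 316 CPM with Scr. Scr lay between them (0.49 ± 0.08, adjusted p = 0.000128; chosen after its value was seen). PHGDH, the first enzyme of serine synthesis, had 744 and 768 CPM with OSMI2 and 414 to 532 CPM with the siRNAs (0.68 ± 0.07, adjusted p = 1.624e-06). SLC1A5, a glutamine transporter, had 146 and 128 CPM against 68.6 to 89.4 CPM (0.78 ± 0.09, adjusted p = 2.54e-06). ASNS, asparagine synthetase, had 349 and 309 CPM against 189 to 228 CPM (0.68 ± 0.08, adjusted p = 5.20e-06). In each of these 3 genes no siRNA library reached OSMI2, and Scr lay between. ATF3 differed more from siOGT1, at 6.33 and 6.32 CPM, than from siOGT2, at 13.03 and 12.6 CPM, with OSMI2 at 16.5 and 14.3 CPM. The tRNA synthetase TARS1 was the member that was lower (-0.33, adjusted p = 0.000932). The list median was 0.351 under DMSO, and no member passed the interaction test.

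ATF4 binds with C/EBP partners to composite sites, and the letters TGATGNAA (either strand) were looked for from 250 bases before to 50 after the RefSeq start site (GRCh38.p14). They stood in 123 of 7828 promoters of tested genes whose mean log2 CPM reached 3 (1.57%) and in 10 of 30 list members at that level (33.3%). Windows from 3 members that hold the letters before the start site are shown with the match in capitals. They are ASNS (chr7:97872444-97872501, minus strand), ATF3 (chr1:212565191-212565248, plus strand) and CHAC1 (chr15:40953237-40953294, plus strand). ASNS and ATF3 were called higher, and CHAC1 was not called.
ASNS: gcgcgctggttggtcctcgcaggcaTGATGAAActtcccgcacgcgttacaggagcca
ATF3: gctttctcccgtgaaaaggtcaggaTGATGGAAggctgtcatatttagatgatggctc
CHAC1: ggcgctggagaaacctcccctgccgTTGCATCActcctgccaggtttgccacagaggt
In CHAC1 the match is the reverse complement, and CHAC1, a glutathione-degrading enzyme, did not pass the test (0.45, adjusted p = 0.128). The letters did not sort the members by response. Of 12 list members that hold them, 7 were higher and 1 lower, with a median of 0.377, and of 26 with no match 17 were higher, with a median of 0.36. A match is a description of the window, not a bound site.

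Mitochondrial ribosomal proteins, which build the ribosome that translates the mitochondrial genome, were lower with OSMI2. Of 78 members, 55 (70.5%) were lower and 1 higher, with a median of -0.366, where 16.7% of all genes and 33.1% of the well-expressed coding genes were lower. Against each siRNA alone 45 were lower, where 10% of all genes were. MRPL18 had 76.0 and 79.3 CPM with OSMI2, 161 and 172 CPM with siOGT1, 124 and 120 CPM with siOGT2 and 111 and 113 CPM with Scr (-0.88 ± 0.08, adjusted p = 2.632e-07). MRPL49 had 99.5 and 98.5 CPM against 148 to 155 CPM and MRPL44 had 32.3 and 31.8 CPM against 47.7 to 53.8 CPM. The OSMI2 libraries were below Scr in all 3 genes. MRPL54 was the single member that was higher (0.64, adjusted p = 1.998e-05; the 4 genes named here were chosen after their values were seen). The siRNAs lay near Scr for the whole list (median 0.0352) and OSMI2 below it (median -0.32). Under DMSO the list median was -0.32 as well, with 50 members lower, and 1 member had a called interaction.

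Nucleolar ribosome biogenesis and MYC target genes were also lower with OSMI2, and cytosolic ribosomal proteins were higher than with the siRNAs. Of 49 biogenesis genes, 24 (49%) were lower and 1 higher (median -0.226), and without OSMI2 replicate 2 a total of 15 were called. The share of well-expressed coding genes that were lower was 33.1%. UTP20, a processome component, had 44.3 and 47.1 CPM against 70.8 to 99.2 CPM (-0.87 ± 0.10, adjusted p = 2.20e-06). POLR1B, a subunit of RNA polymerase I, had 30.7 and 29.2 CPM against 45.1 to 49.1 CPM, and SRM, which makes spermidine, had 106 and 111 CPM against 149 to 173 CPM. MYC mRNA itself, chosen after its value was seen, did not pass (-0.06, adjusted p = 0.572). Of 79 cytosolic ribosomal protein genes, 25 were higher (31.6%) and 0 lower, with a median of 0.133, where 14.4% of all genes were higher. Both sides had medians below Scr, at -0.0753 for OSMI2 and -0.205 for the siRNAs. These genes summed to 129400 and 130300 CPM with OSMI2. With siOGT1 and siOGT2 they summed to 124800 and 127400 CPM in replicate 1, and to 112200 and 107600 CPM in replicate 2. RPS16 had 1171 and 1182 CPM with OSMI2 and 812 to 884 CPM with the siRNAs (0.47 ± 0.06, adjusted p = 7.383e-06), with Scr beside OSMI2 at 1125 and 1240 CPM. The ribosomal protein count was unstable, at 7 without OSMI2 replicate 2, 51 under upper-quartile scaling and 55 when only genes whose mean log2 CPM reached 3 were tested, and these genes have many processed copies that can share reads.

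The machinery of RNA interference itself differed. It loads small RNAs, siRNAs included, into Argonaute proteins, which silence matching transcripts with TNRC6 partners. Of 13 members, 7 (53.8%) were lower with OSMI2 and 0 higher (median -0.203), where 33.1% of well-expressed coding genes were lower. DICER1, which cuts precursors to small RNAs, had 62.4 and 49.98 CPM with OSMI2, 160 and 191 CPM with siOGT1, 79.9 and 97.2 CPM with siOGT2 and 78.0 and 78.8 CPM with Scr. The siOGT1 libraries stood far above all others, and OSMI2 was the lowest (-1.15 ± 0.10, adjusted p = 6.87e-08). AGO1 had 103 and 101 CPM with OSMI2, 137 to 175 CPM with the siRNAs and 103 and 97.6 CPM with Scr. AGO2 had 50.6 and 53.4 CPM against 78.4 to 101 CPM, and Scr had 55.1 and 65.3 CPM. TNRC6A had 60.0 and 55.3 CPM against 92.8 to 118 CPM, and Scr had 61.7 and 69.8 CPM. In AGO1, AGO2 and TNRC6A OSMI2 thus lay near or just below Scr and both OGT siRNAs above it.

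Heat shock proteins and chaperonins, which fold other proteins, were lower in 21 of 38 members (55.3%) and higher in 2 (median -0.254). For these and the proteasome genes below, the share of well-expressed coding genes that were lower was 33.1%. HSPA4L had 32.1 and 35.1 CPM with OSMI2 against 56.9 to 73.3 CPM with the siRNAs (-0.97 ± 0.09, adjusted p = 2.204e-07). HSPB1, a small heat shock protein, had 223 and 255 CPM against 392.2 to 514 CPM, and TCP1, a subunit of the chaperonin ring, had 599 and 641 CPM against 907 to 946 CPM. Scr lay between for HSPA4L and HSPB1 and near the siRNAs for TCP1. The median under DMSO was -0.229, with 20 members lower and 0 interactions. Of 35 proteasome genes, 15 (42.9%) were lower and 1 higher (median -0.15), PSMD12 (-0.51) and PSMA5 (-0.37) with the smallest adjusted p among them, and 8 were called without OSMI2 replicate 2.

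**Figure D4:**
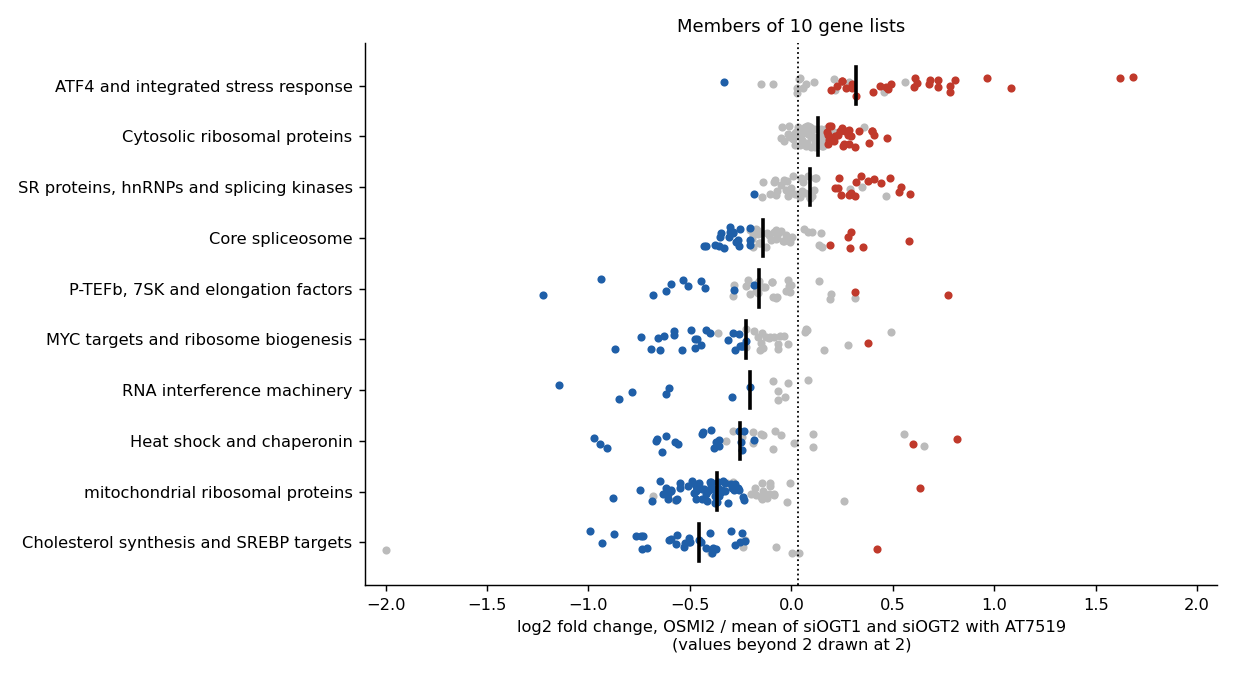
Log2 fold change of OSMI2 against the mean of both siRNAs with AT7519 (x axis) for the tested members of 10 gene lists (y axis), red and blue where called higher and lower, grey otherwise, with a black bar at each list median and a dotted line at the median of all genes (0.0319). A value beyond the range is drawn at its edge. The ATF4 members lie mostly to the right (median 0.319), and the sterol and mitochondrial ribosomal members to the left (-0.455 and -0.366).

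Among genes of the step that AT7519 blocks, CDK9 and HEXIM1 did not pass the test. CDK9, chosen after its value was seen, had 72.0 and 62.0 CPM with OSMI2 and 66.6 to 84.2 CPM with the siRNAs (-0.16 ± 0.07, adjusted p = 0.0825). HEXIM1, a protein that holds P-TEFb inactive, also chosen after its value was seen, had 26.7 and 31.5 CPM against 23.9 to 34.0 CPM (-0.01 ± 0.08, adjusted p = 0.941). Of 40 genes of P-TEFb, 7SK and elongation, 11 were lower (27.5%) and 2 higher (median -0.161), a share of lower genes no larger than that of well-expressed coding genes (33.1%). LEO1 and RTF1 of the PAF1 complex were lower, LEO1 with 51.4 and 48.3 CPM against 94.4 and 97.7 CPM with siOGT1 and 60.4 and 61.8 CPM with siOGT2. MLLT3 of the super elongation complex had 7.57 and 8.11 CPM against 14.1 to 16.9 CPM (-0.94 ± 0.13, adjusted p = 1.374e-05). CDK7, the kinase of TFIIH, had 23.9 and 15.2 CPM against 24.3 to 38.4 CPM (-0.68, adjusted p = 0.00035). Of 30 Mediator subunits, 13 were lower (43.3%) and 1 higher (median -0.245), where 33.1% of well-expressed coding genes were lower.

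Of 48 SR proteins, hnRNPs and splicing kinases, 16 were higher (33.3%) and 1 lower (2.08%), with a median of 0.093, where 14.4% of all genes were higher. Without OSMI2 replicate 1 the median was -0.0176 and 11 were called. LUC7L3, a U1-associated protein, had 114 and 118 CPM with OSMI2 and 76.7 to 84.8 CPM with the siRNAs, with Scr at 103 and 99.96 CPM (0.53 ± 0.07, adjusted p = 7.51e-06; interaction 0.47, adjusted p = 0.0112). RBM39 had 525 and 490 CPM against 321 to 450 CPM, and LUC7L (0.58) and LUC7L2 (0.44), paralogues of LUC7L3, were also higher. In all 4 genes the siRNA libraries lay mostly below Scr. Of 58 core spliceosome genes, 19 were lower (32.8%) and 6 higher (median -0.139), near the 33.1% of well-expressed coding genes, and 15 were called without OSMI2 replicate 2. DHX15, the helicase that takes spliceosomes apart, had 430 and 432 CPM against 543 to 606 CPM (-0.42 ± 0.06, adjusted p = 2.214e-05), whereas PRPF3 of the tri-snRNP was higher (0.58, adjusted p = 0.0001202). Of 37 cleavage, polyadenylation and Integrator genes, 14 were lower (37.8%) and 5 higher (13.5%), close to the shares of well-expressed coding genes. CSTF1 had 21.98 and 19.7 CPM against 32.0 to 37.3 CPM, and PCF11, a termination factor, had 85.7 and 81.6 CPM against 38.6 to 69.1 CPM.

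Of 48 G2/M genes, 18 were lower (37.5%) and 4 higher (median -0.147), near the 33.1% of well-expressed coding genes that were lower, so the count is not particular to them. AURKA, a spindle kinase, had 12.9 and 16.2 CPM with OSMI2, 33.7 and 35.5 CPM with siOGT1, 25.1 and 30.3 CPM with siOGT2 and 25.7 and 23.4 CPM with Scr (-1.09 ± 0.10, adjusted p = 2.04e-07). PLK1 had 37.0 and 39.3 CPM against 50.1 to 78.5 CPM and ANLN, which organises the cleavage furrow, had 66.0 and 85.6 CPM against 115 to 164 CPM. Of 40 p53 targets, 17 were lower (42.5%) and 8 higher (20%), with a median of -0.135. Among well-expressed coding genes the shares were 33.1% lower and 15.8% higher. CDKN1A, the cell cycle inhibitor p21, had 129 and 125 CPM against 187 to 222 CPM (-0.67 ± 0.08, adjusted p = 1.92e-06). PPM1D, a phosphatase that restrains p53, had 7.47 and 6.79 CPM with OSMI2, 13.1 to 17.8 CPM with the siRNAs and 22.5 and 18.4 CPM with Scr (-1.09 ± 0.11, adjusted p = 4.87e-07). OSMI2 was the lowest group for both, and the siRNAs overlapped Scr for CDKN1A.

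The 2 siRNAs themselves differed in 1532 genes (6.43%), with 2.87% higher in siOGT1 and 3.56% lower, and a fit of these groups alone called 273. These differences bear on the main comparison, since its siRNA side is their mean. MAP2K4, a kinase upstream of JNK, had 8.02 and 6.33 CPM with siOGT1, 42.4 and 39.4 CPM with siOGT2, 25.9 and 27.7 CPM with OSMI2 and 36.1 and 28.6 CPM with Scr. Only the siOGT1 libraries were low among these 8 (siOGT1 against siOGT2 -2.52 ± 0.13, adjusted p = 1.19e-10). SLC26A2, a sulfate transporter, had 11.1 and 9.31 CPM with siOGT1 and 48.3 to 55.4 CPM with siOGT2, and GCH1, which starts tetrahydrobiopterin synthesis, had 6.59 and 5.85 CPM and 27.5 to 29.4 CPM. CTSL, a lysosomal protease, went the other way, with 175 and 142 CPM with siOGT1, 41.5 and 26.9 CPM with siOGT2 and 149 and 142 CPM with OSMI2. MAP2K4, SLC26A2, GCH1 and CTSL were each called in the main comparison (0.65 to 0.99), and none of these 4 kept its call when the siRNA libraries were fitted as 1 group of 4. RMI2 and TGM3 were the other 2 genes highest in siOGT1 relative to siOGT2 (1.49 and 1.43).

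Gene classes differed in direction. Of 98 intronless protein-coding genes (1 exon in all annotated transcripts) whose mean log2 CPM reached 3, 46 were lower and 6 higher (median -0.324). Among the 9388 with several exons, 3110 (33.1%) were lower and 1487 (15.8%) higher. Under DMSO 11 intronless genes were lower and 11 higher, and 15 of the 98 had a called negative interaction and 0 a positive one. Of the 9388 with several exons, 1821 were lower and 921 higher under DMSO. Among those 9388, 349 had a called negative interaction and 41 a positive one. Long non-coding genes had a median of 0.207, with 609 of 4838 higher (12.6%) and 300 lower (6.2%). Of all tested genes 14.4% were higher and 16.7% lower, so long non-coding genes were called less often in both directions. Of 2304 protein-coding genes at that level that span 80.1 kb or more, 36.5% were lower and 12.5% higher, and of 2305 that span at most 14.9 kb, 31.9% were lower and 16.4% higher. The E-box letters CACGTG stood in 12.5% of promoters of lower genes, 9.54% of higher and 10.8% of all 7828. This tilt was not particular to the E-box. Motifs of NRF1 stood in 16.2% of lower and 9.95% of higher genes, and of ETS factors in 11.6% and 8.08%. Motifs of ZNF143 (5.74% and 2.85%), CRE (4.46% and 2.77%) and E2F (1.25% and 0.245%) tilted likewise. The ATF4 composite letters (1.51% and 1.96%) and the sterol regulatory element (0.944% and 1.14%) went the other way. The letters CCAAT, bound by NF-Y, stood in 20 of 29 sterol gene promoters (69%), 18 of 30 in the ATF4 list (60%) and 37.8% of all, both strands searched. The letters TCACNCCAC, a form of the sterol regulatory element that SREBP binds, stood in 1 of 29 sterol gene promoters (3.45%) and 1.09% of all. ZNF143, a promoter-binding factor that works with HCF-1, was at 34.5 and 37.3 CPM with OSMI2, 75.3 to 99.6 CPM with the siRNAs and 31.4 and 34.6 CPM with Scr (-1.24 ± 0.10, adjusted p = 2.718e-08).

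The same contrast under DMSO called 3955 genes (16.6%). Of the 3434 genes higher with AT7519, 1217 were also higher under DMSO and 3 lower, and of the 3974 lower ones, 1881 were also lower and 23 higher. The interaction was called in 489 genes (2.05%), 94 positive (0.394%) and 395 negative, and its count varied between 159 and 1149 over the alternatives. Among the lists described, the sterol genes had the largest gap between the 2 medians, and the mitochondrial ribosomal, heat shock and ATF4 medians differed by less than 0.05 between agents. GCNT1, which branches O-glycans, was -1.53 with AT7519 and -0.20 under DMSO, and KBTBD7, a ubiquitin ligase adaptor, was -1.36 and 0.18. GVQW3 and ZNF382 were at 1.32 and 1.34 with AT7519 and at 0.21 and 0.24 under DMSO, and both overlap other genes.

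**Figure D5:**
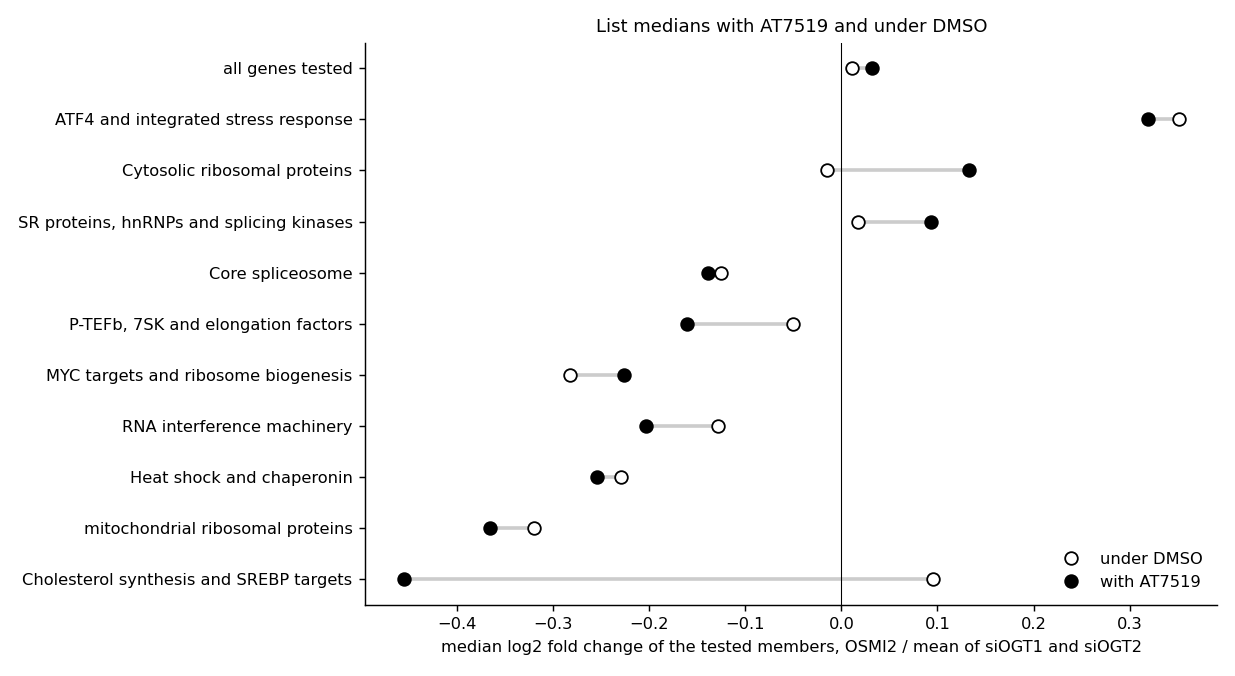
Median log2 fold change of OSMI2 against both siRNAs (x axis) for 10 gene lists and all tested genes (y axis), filled with AT7519 and open under DMSO. The sterol list moves from 0.0955 to -0.455, whereas the mitochondrial ribosomal list stays at -0.32 and -0.366 and the ATF4 list at 0.351 and 0.319.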

How the data were processed

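RNA of LNCaP cells was sequenced in 16 libraries (8 groups of 2). The deposited values used were the authors' raw counts, 1 whole number per gene and library; STAR, HTSeq, DESeq2, GRCh37 and hg19 appear in the submitters' processing notes, with no version. Libraries came from a strand-specific kit, per the labels' protocols. Depth was 40216911 to 147019364 counts per library.

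All 16 libraries entered 1 fit of the counts (edgeR 4.0.16, R 4.3.3): filterByExpr (23830 of 60252 genes), TMM, 1 mean per group, glmQLFit (robust) and glmQLFTest, two-sided, 8 residual degrees of freedom, Benjamini-Hochberg adjusted p under 0.05 over all tested genes. The contrast was OSMI2 minus the mean of siOGT1 and siOGT2, with AT7519. Standard errors divide the size of the log2 fold change by the root of its F statistic. Symbols came from a gene name table (55528 matched). GENCODE v29, on GRCh38, served for gene types, exon numbers, gene spans and overlaps. Promoters came from RefSeq (GRCh38.p14), with motifs chosen after seeing the data.

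Genes were named by a rule: OGT and OGA, the 12 highest and 12 lowest called against both and each siRNA (mean log2 CPM of 3 or more, no overlap, ranked by the smaller single-siRNA fold), up to 4 called members per list by adjusted p, 5 per direction for the interaction and 3 per direction between siRNAs. Others are marked, and some genes that the rule names are not reported here. The members and the 36 lists were chosen with earlier results of these data known. Alternatives were other scalings, filters, thresholds and groupings, DESeq2 1.42.0, limma voom (limma 3.58.1) and leaving libraries out. Splicing was not analysed here.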

Additional observations from a re-analysis of the deposited data

Results flagged for a closer look

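Among the named genes reported here, 37 differed between the AT7519 and DMSO contrasts of OSMI2 against both siRNAs by the interaction test (edgeR, adjusted p under 0.05). Of all tested genes, 489 (2.05%) did. Some of the named genes were chosen by this same test, and others by their AT7519 difference, which is part of it. The count of 37 therefore reflects that choice and is not a result about the named genes. Values are interaction log2 differences, negative where OSMI2 was lower relative to the siRNAs with AT7519 than under DMSO.

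The most negative were CCN1 at -1.73 (-1.73 with AT7519 and 0.00 under DMSO), ZNF281 at -1.69, KBTBD7 at -1.54, ZNF689 at -1.38 and GCNT1 at -1.34. Among the cleavage factors CLP1 was at -1.22 and CSTF1 at -0.70. EFNB2 stood at -1.20. The sterol genes MSMO1, IDI1 and LSS were at -1.04, -1.002 and -0.81. The zinc exporter SLC30A1 was at -1.004. Among p53 targets PPM1D was at -0.96, CDKN1A at -0.52 and TNFRSF10B at -0.48. Of the genes lowest against both siRNAs, MARS2 was at -0.92, PUDP at -0.87, YOD1 at -0.83, NKIRAS1 at -0.80 and TMOD2 at -0.70. The mitotic kinases AURKA and PLK1 were at -0.78 and -0.46. SLC45A3, a prostate transporter, was at -0.57, ALAS1, which starts haem synthesis, at -0.56, NFKB1 at -0.56 and NEU1 at -0.42.

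Positive values were smaller in number. VEGFA was at 0.45, LUC7L3 at 0.47, XRCC2 at 0.61, OGT at 0.66, LINC02593 at 0.68, SRCIN1 at 0.73, KRTCAP2 at 1.01, AHSA2P at 1.07, ZNF382 at 1.09, YJEFN3 at 1.10 and GVQW3 at 1.11. The AHSA2P and YJEFN3 interactions (adjusted p = 0.04877 and 0.04471) each lost the call in 13 of 22 alternatives.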

How the results depend on the processing

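No named gene changed sign in the alternatives run, whereas the balance of higher and lower calls turned with the scaling in the main, single-siRNA, between-siRNA and DMSO contrasts. OSMI2 against both siRNAs with AT7519 called 7408 genes, 4830 at an adjusted p under 0.01, 4016 when required against each siRNA alone, and 4936 to 7894 with single libraries left out, the lowest without OSMI2 replicate 2. At p under 0.01, OSMI2 against siOGT1 called 4353 of 6881 (4911 to 6033 with single libraries left out), against siOGT2 3426 of 5777 (3821 to 5644), siOGT1 against siOGT2 726 of 1532 (841 to 1175), the DMSO contrast 1961 of 3955 (1393 to 3400) and the interaction 169 of 489 (165 to 846). siOGT1 against siOGT2 called 273 when only these groups were fitted. With the siRNA libraries as 1 group of 4, the DMSO contrast called 2495 and the interaction 159. DESeq2 called 982 interactions and no low-count filter 1149. The cause of these shifts was not tested.

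With the replicate block, the main comparison called 8162 genes and the interaction 776. The labels do not say that a replicate number marks a shared culture or day. Replicate differences correlated at 0.0837 to 0.734 between the AT7519 arms, lowest between Scr and OSMI2, so the pairing was not made part of the main fit.

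Of 166 named genes called in the main comparison, 19 lost the call in at least 1 alternative, and of 10 named for the interaction, 7 did. Higher calls were 56.9% of those against siOGT1 and 59.6% against siOGT2 under upper-quartile scaling, and 45.3% and 41.5% under TMM. By library size alone the share was 51.6% against siOGT2, 58.3% between siRNAs (44.6% under TMM) and 53.8% under DMSO, where upper-quartile scaling gave 52.1% and TMM 41.6%. With 2 libraries per group, 1 OSMI2 library can decide a count, and lowly counted genes limit the depth of what can be called.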

Other observations

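VEGFA, the hypoxia-regulated angiogenic factor, had 213 and 215 CPM with OSMI2 and 84.6 to 110 CPM with the siRNAs (1.14 on the log2 scale), while of 36 glycolysis and hypoxia genes 5 were higher (13.9%) and 11 lower (30.6%), near the shares of well-expressed coding genes. Of 40 interferon-stimulated genes, 10 were higher (25%) and 1 lower (2.5%), with a median of 0.207, where 14.4% and 16.7% of all genes were, among them ISG20, an exonuclease, with 14.4 and 17.4 CPM against 6.89 to 8.84 CPM. Of 41 androgen receptor targets, 10 were higher (24.4%) and 11 lower (26.8%), with no common direction (median 0.00866). UGT2B15, which glucuronidates androgens, had 539 and 560 CPM with OSMI2, 1044 and 1141 CPM with siOGT1 and 1876 and 2122 CPM with siOGT2, with Scr at 910 and 878 CPM.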
